A study of Mus musculus with 6 samples.

Results

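The genes described here are the feedback regulators and nuclear targets of the canonical Wnt pathway, 10 listed genes of which 7 were measured among the 30142 genes compared. A gene was taken in when a feature of the array carried its symbol and no other, and the brightest such feature stood for it; each of the 7 had 1 feature. Axin2, Nkd1, Znrf3, Notum, Lgr5, Lef1 and Tcf7l1 met this rule. Rnf43 shares its only feature with the symbol of a non-coding RNA and is given no value, and Tcf7 and Apcdd1 are given no array value. The samples were cancer stem cells of skin squamous cell carcinomas, sorted from tumours of Sfrp1_KO mice (genotype Sfrp1-/-, 3 arrays) and of WT mice (3 arrays). Mice of both genotypes had been given DMBA, a mutagen, on 3 days (postnatal days 23, 25 and 27), followed by TPA, a tumour promoter, 2 times a week for up to 30 to 40 weeks. The sort kept cells without lineage markers that carried Epcam, α6 integrin and CD34. RNA of each sample was hybridised to its own Affymetrix MTA 1.0 array. The labels name neither the deleted part of Sfrp1 nor separate mice behind the replicates, so a p-value here rests on the spread between samples that may differ only technically.

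In canonical Wnt signalling a Wnt protein binds a Frizzled receptor and an Lrp co-receptor, the complex that destroys β-catenin is switched off, and β-catenin enters the nucleus, where it joins proteins of the TCF/LEF family on DNA. Several genes it then turns on act back on the pathway: Axin2 rebuilds the destruction complex, Nkd1 binds dishevelled, Znrf3 and Rnf43 remove Frizzled from the cell surface, and Notum inactivates Wnt proteins outside the cell. The levels of these genes are therefore often read as a measure of pathway activity. Sfrp1 is a secreted antagonist that binds Wnt proteins, and in mouse skin Lgr5 and Tcf7l1 are known from stem cells of the hair follicle. The comparison asks how these read-outs differ between stem cells with and without Sfrp1.

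Values are the log2 signals deposited by the authors. They reach 19.93 where a scanner ends at 16, which means that an unnamed step altered the scale, and a difference of 1 need not be a doubling of RNA. The level of background on an array was taken as the highest of its 23 antigenomic probe sets, which match no mouse sequence, and lay between 4.82 and 5.10. Precision is limited by the number of arrays. Sfrp1 itself was at 5.09, 5.11 and 5.15 on the Sfrp1_KO arrays, against 5.71, 5.48 and 6.07 on the WT arrays. Its groups did not overlap, and the difference did not pass the test over all genes (-0.64, SE 0.15, limma adjusted p = 0.0969; two-sided exact permutation p = 0.1, the smallest that 3 arrays against 3 allow). Probes outside the deleted part of Sfrp1 would not test its loss. Of the sort markers, Epcam lay under background on 2 of the 3 Sfrp1_KO arrays, and it and Itga6 were lower in Sfrp1_KO (limma adjusted p = 0.0455 and 0.0292). Leaving out any 1 array of Sfrp1_KO ended both calls (highest adjusted p 0.184 and 0.111), as did leaving out WT replicate 1 for Epcam (0.103) and WT replicate 2 for Itga6 (0.0650). Cd34 was 1.57 higher and not called (adjusted p = 0.0714), though it was without Sfrp1_KO replicate 3 (1.97, adjusted p = 0.00664). In RNA from sorted cells, fewer cells of a type and less RNA per cell cannot be told apart.

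None of the 7 measured genes was called higher or lower in Sfrp1_KO (limma, adjusted p under 0.05 over all 30142 genes); 3.28% of all genes were, so that no call among 7 genes is no departure from the background. The share was 7.84% among the 10799 genes whose mean level was above background, where Znrf3 and Nkd1 stand, and 0.734% among the 19343 at or under it, where the other 5 stand. At an unadjusted p under 0.05, 1 of the 7 was lower and none higher, where 14.4% of all genes passed. Znrf3 was well above background and lower on each Sfrp1_KO array, Nkd1 stood just above background and overlapped, and the other 5 lay under background on all 6 arrays. The median difference of the 7 was -0.05, against -0.01 over all genes.

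**Figure D1:**
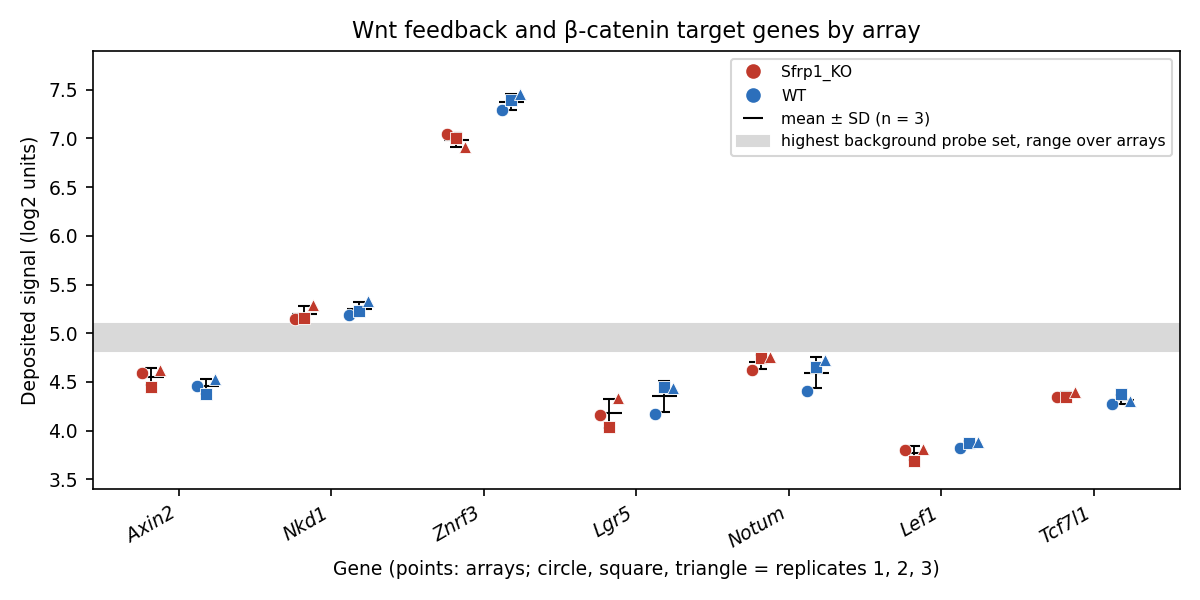
Deposited log2 signal (vertical axis) of the 7 measured genes on each array, Sfrp1_KO in red and WT in blue, with the mean and SD of 3 arrays in black and the range of the background level in grey. Only Znrf3 and Nkd1 lie above the grey band, and the Znrf3 arrays of the genotypes do not overlap.

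Znrf3, a transmembrane ubiquitin ligase that clears Frizzled receptors from the membrane, was the single member with a clear signal. It was at 7.05, 7.00 and 6.91 on the Sfrp1_KO arrays, against 7.29, 7.39 and 7.45 on the WT arrays. The highest Sfrp1_KO array lay 0.24 below the lowest WT array, a gap wider than the range within Sfrp1_KO (0.14) or within WT (0.16). The means were 6.98 ± 0.07 in Sfrp1_KO and 7.38 ± 0.08 in WT (SD, n = 3 each). The difference of -0.39 (SE 0.08, 95% interval -0.60 to -0.19) missed the threshold over all genes (limma adjusted p = 0.0687, unadjusted p = 0.00277). It passed with array weights (-0.39, limma adjusted p = 0.0475) and with none of the other alternatives. With these weights 754 of all genes were called higher and 576 lower, against 552 and 437 without them. With trend and robust options the SE of the Znrf3 difference was 0.16 (limma adjusted p = 0.313). After quantile normalization once more it was 0.14 (adjusted p = 0.287). Without any 1 array the difference ran from -0.44 to -0.36, with adjusted p between 0.0822 and 0.215. Non-overlap alone is common on these arrays: 19.9% of all genes did not overlap, 32.1% of those whose mean level was above background and 13.1% of those at or under it. Over all genes 10.8% were lower without overlap.

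**Figure D2:**
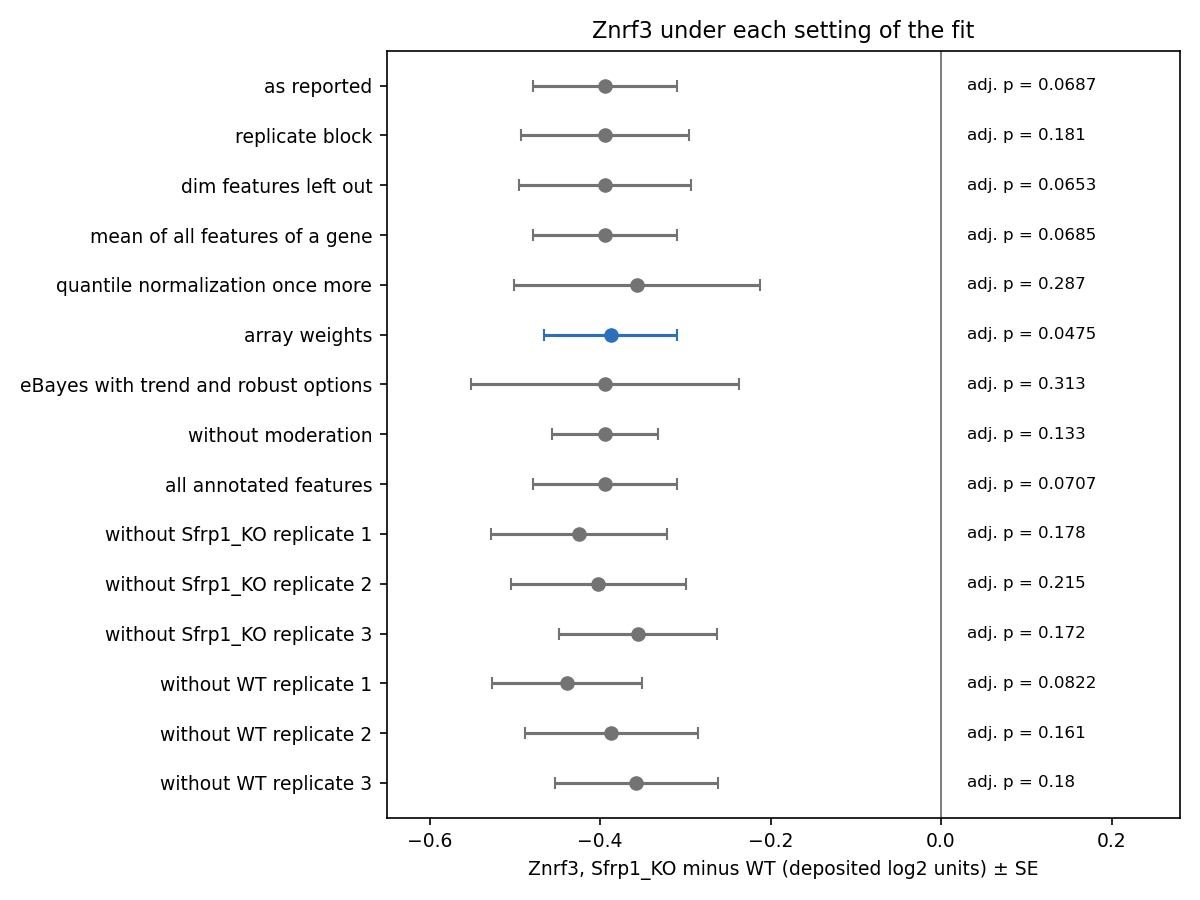
Difference of Znrf3 between the genotypes (Sfrp1_KO minus WT, deposited log2 units, bars SE) as reported and under 14 other settings, with the limma adjusted p of each at the right and the setting that passes 0.05 in blue. The difference lies between -0.44 and -0.36 in every setting shown and passes with array weights alone.

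Nkd1, which binds dishevelled and dampens the signal inside the cell, was the other member above background on all 6 arrays, by 0.05 to 0.51 log2 units. Its level was 5.14, 5.15 and 5.29 on the Sfrp1_KO arrays, against 5.19, 5.23 and 5.33 on the WT arrays, and the groups overlapped. The difference was -0.05 (SE 0.08, 95% interval -0.26 to 0.15, limma adjusted p = 0.898). The 2 sets of arrays differed by less than their spread.

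Axin2, the scaffold of the β-catenin destruction complex that the pathway itself induces, lay under background throughout. It was at 4.59, 4.45 and 4.62 on the Sfrp1_KO arrays, against 4.46, 4.38 and 4.53 on the WT arrays. The groups overlapped, and every array was 0.29 to 0.63 below its own background level. The difference of 0.10 (SE 0.09, 95% interval -0.11 to 0.31, limma adjusted p = 0.744) was within the spread of the arrays. Because Axin2 is the target most used to read the pathway, the 250 bases before its annotated start site are shown (RefSeq, GRCm38.p6, chr11:108920099-108920348, plus strand), written 5′ to 3′ in lower case.
Axin2: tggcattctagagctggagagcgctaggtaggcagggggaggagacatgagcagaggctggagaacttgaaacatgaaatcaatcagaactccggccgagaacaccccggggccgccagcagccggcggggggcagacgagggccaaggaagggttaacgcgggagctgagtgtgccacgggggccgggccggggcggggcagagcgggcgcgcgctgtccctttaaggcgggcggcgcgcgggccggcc
The letters CTTTGAT and CTTTGAA, 2 forms of the site that TCF/LEF proteins bind, were searched on both strands of windows from 250 bases before to 50 bases after the start. Neither was in the Axin2 window, so no base is in capitals. Of the 10 listed genes, 11 windows of Lef1, Tcf7l1, Nkd1, Tcf7, Rnf43 and Axin2 were counted, and none held either form. Apcdd1 was left out of this count. Over all 32851 windows 8.65% held at least 1. This says only that those letters are not in these windows.

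Notum, a secreted enzyme that removes the lipid by which Wnt proteins bind their receptors, was at 4.63, 4.74 and 4.75 on the Sfrp1_KO arrays, against 4.41, 4.66 and 4.72 on the WT arrays. WT replicate 1 was the low array, the groups overlapped, and all 6 arrays were under background. The difference was 0.11 (SE 0.11, 95% interval -0.14 to 0.36, limma adjusted p = 0.774). It was 0.02 without WT replicate 1, so its size rests on that array.

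Lgr5, a receptor for R-spondins and a marker of hair follicle stem cells, was at 4.16, 4.03 and 4.33 on the Sfrp1_KO arrays, against 4.17, 4.45 and 4.44 on the WT arrays. It was under background on every array, by 0.38 at the closest. The groups overlapped because WT replicate 1 lay with the Sfrp1_KO arrays. The difference of -0.17 (SE 0.12, 95% interval -0.46 to 0.12, limma adjusted p = 0.644) had the widest interval of the 7.

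Lef1 and Tcf7l1 encode DNA-binding partners of β-catenin, Lef1 acting mostly as an activator and Tcf7l1 mostly as a repressor. Lef1 was at 3.80, 3.69 and 3.82 on the Sfrp1_KO arrays, against 3.82, 3.88 and 3.88 on the WT arrays. The groups did not overlap by a margin of 0.002, which is smaller than the SD within either genotype (0.07 and 0.03). The level was 0.94 to 1.38 below background, and between 12 and 15 of the 23 antigenomic probe sets of an array were dimmer. The difference was -0.09 (SE 0.08, 95% interval -0.27 to 0.10, limma adjusted p = 0.742). Tcf7l1 was at 4.35, 4.35 and 4.40 on the Sfrp1_KO arrays, against 4.28, 4.37 and 4.30 on the WT arrays, also under background on all 6. Those groups overlapped, with a difference of 0.05 (SE 0.07, 95% interval -0.13 to 0.22, limma adjusted p = 0.889).

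**Figure D3:**
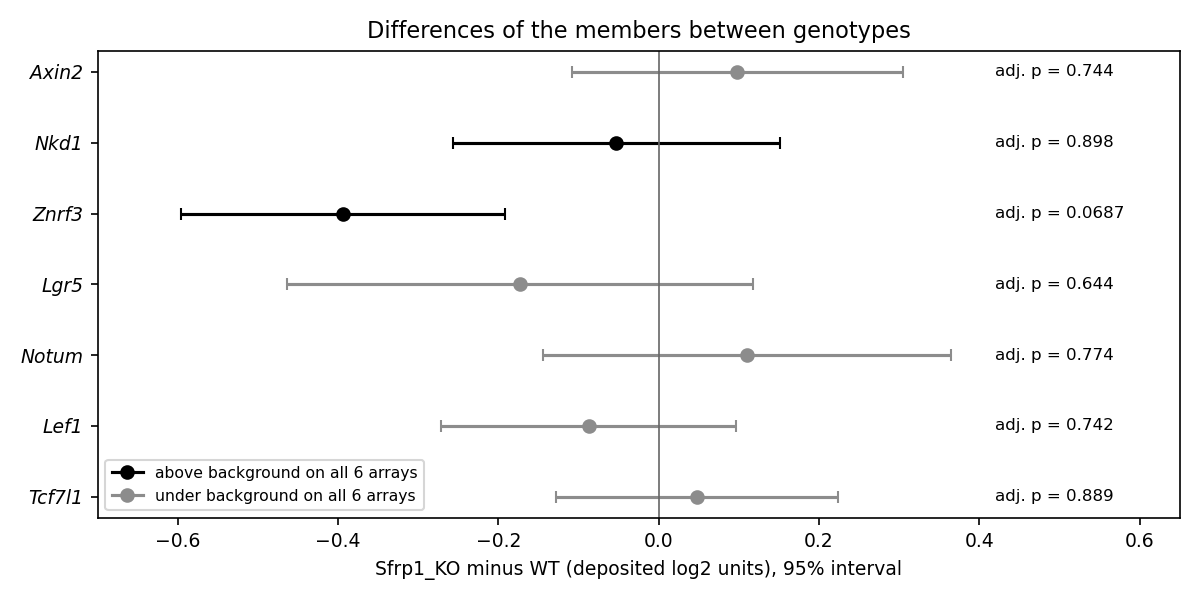
Difference of each measured gene between the genotypes (Sfrp1_KO minus WT, deposited log2 units) with its 95% interval from limma, black where the gene was above background on all 6 arrays and grey where it was under it on all 6. The interval of Znrf3, from -0.60 to -0.19, is the one that does not span 0.

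Over the 5 genes under background the differences ran from -0.17 to 0.11, with interval limits between -0.46 and 0.36 and adjusted p between 0.644 and 0.889 by limma. A level under background is only an upper bound, so these intervals describe signal on the array and set no limit on the change of RNA. Within a genotype most members were ordered alike over the arrays. Sfrp1_KO replicate 3 was the highest Sfrp1_KO array for 6 of the 7, all but Znrf3, and WT replicate 1 was the lowest WT array for 6 of the 7, all but Axin2. The median over all genes was 4.61 on Sfrp1_KO replicate 3, against 4.56 and 4.51 on the other Sfrp1_KO arrays, and 4.53 on WT replicate 1, against 4.60 and 4.62 on the other WT arrays. The part of these medians in the members' values was not tested.

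The rest of the pathway was read from 5 lists with 115 genes, 108 of them measured. These lists were chosen with earlier results of these data known, so their counts beside the share of all genes are no test. Of the 108, 3 were higher and 8 lower in Sfrp1_KO, with 1.83% and 1.45% of all genes called in these directions. By mean level 61 of the 108 were above background, where 475 of 10799 genes were higher and 372 lower. The median difference of the 108 was -0.02. Nearest to Znrf3 stands the R-spondin axis, since R-spondins and their Lgr receptors keep Znrf3 and Rnf43 from acting on Frizzled. Among 20 genes of this axis and of other feedback at the membrane 1 was higher and 2 were lower. Lgr6, an R-spondin receptor of skin stem cells, was at 4.42, 4.30 and 4.47 on the Sfrp1_KO arrays, all under background, against 5.19, 4.99 and 4.99 on the WT arrays, each just above its own background level (limma adjusted p = 0.0197). The WT mean of 5.05 was under the mean background level of the Sfrp1_KO arrays, 5.07, so no lower bound on the change can be given. Lgr4, the third such receptor, was at 4.65, 4.56 and 4.63 on the Sfrp1_KO arrays, all under background, against 4.84, 5.50 and 5.25 on the WT arrays, 2 of them above it. It was not called (limma adjusted p = 0.158), though it was without WT replicate 1 (adjusted p = 0.0343). The 4 R-spondins lay under background on all 6 arrays, and none was called. The Wnt antagonist gene Dkk2 was higher by at least 3.78 (under background on the WT arrays; limma adjusted p = 0.00613), and Sostdc1, an antagonist of BMP and Wnt, fell by 1.74 (adjusted p = 0.0220). Lgr6 was not called without Sfrp1_KO replicate 1 or 2 or WT replicate 3 (adjusted p up to 0.0922), nor was Sostdc1 without any 1 Sfrp1_KO array or WT replicate 3 (up to 0.106).

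Next come the receptors that Znrf3 acts on and the genes around β-catenin. Of 15 Frizzled, Lrp and related receptors 2 were lower, where 1.45% of all genes were. By mean level 10 of the 15 were above background, where 372 of 10799 genes were lower. Fzd6 fell by 1.02 (limma adjusted p = 0.00649) and the co-receptor gene Lrp5 by 1.11 (adjusted p = 0.00478). Both kept their calls without any 1 array. None was called higher, though 3 of the 15 differences were positive. These were Lrp6 (0.62, limma adjusted p = 0.117), Ryk (0.43, adjusted p = 0.101) and Ror2 (0.38, adjusted p = 0.118). The 3 were higher without overlap and 5 receptors were lower without overlap, where 19.9% of all genes did not overlap in either direction. Of 20 listed genes of the destruction complex and dishevelled 18 were measured, and none was called. Ctnnb1, the gene of β-catenin, was not among the 18. The smallest p-values were those of Ctnnbip1, which keeps β-catenin from TCF/LEF (difference -0.42, limma adjusted p = 0.0556, and 0.0372 with array weights), and of the kinase gene Csnk1a1 (-0.49, adjusted p = 0.116). None of 20 nuclear partners of TCF/LEF was called, with Ep300, a histone acetyltransferase, nearest (1.03, adjusted p = 0.0657, and 0.0437 with dim genes left out or 0.0323 after quantile normalization once more), followed by the co-repressor gene Tle4 (adjusted p = 0.242), which was under background on all 3 Sfrp1_KO arrays and above it on 2 WT arrays. In these 2 lists 4 of 18 and 4 of 20 genes passed an unadjusted p under 0.05, where 14.4% of all genes did. By mean level 14 of the 18 and 17 of the 20 were above background, where 1453 of 10799 genes passed as higher and 1560 as lower.

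Of 40 other listed genes described as β-catenin targets 35 were measured, and Ccnd1 was not among them. Of the 35, 2 were higher and 4 lower, where 1.83% and 1.45% of all genes were. By mean level 16 of the 35 were above background, where 475 of 10799 genes were higher and 372 lower. Axin2, Nkd1, Notum and Lgr5 gave no call, but Axin2, Notum and Lgr5 lay under background on all 6 arrays. The T-box factor gene Tbx3 rose by 1.01 (limma adjusted p = 0.00613), and Twist1, a factor of mesenchymal cells, was called higher (adjusted p = 0.0215). Twist1 was at 5.24, 5.43 and 4.86 on the Sfrp1_KO arrays, the first 2 above background, against 3.85, 3.96 and 4.22 on the WT arrays, all under it. The hyaluronan receptor gene Cd44 fell by 3.44 (adjusted p = 0.0188), the ephrin gene Efnb1 by 1.89 (adjusted p = 0.00378), Tiam1, an activator of Rac, by at least 0.54 (adjusted p = 0.0108) and the tight junction gene Cldn1 by at least 0.29 (adjusted p = 0.0240). Tbx3 and Efnb1 kept their calls without any 1 array. Cd44 was not called without any 1 Sfrp1_KO array (adjusted p up to 0.0749), Cldn1 without any 1 Sfrp1_KO array or WT replicate 2 or 3 (up to 0.0737), Tiam1 without Sfrp1_KO replicate 1 or 2 (up to 0.0655) and Twist1 without Sfrp1_KO replicate 1 or 2 or WT replicate 1 or 2 (up to 0.0907).

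**Figure D4:**
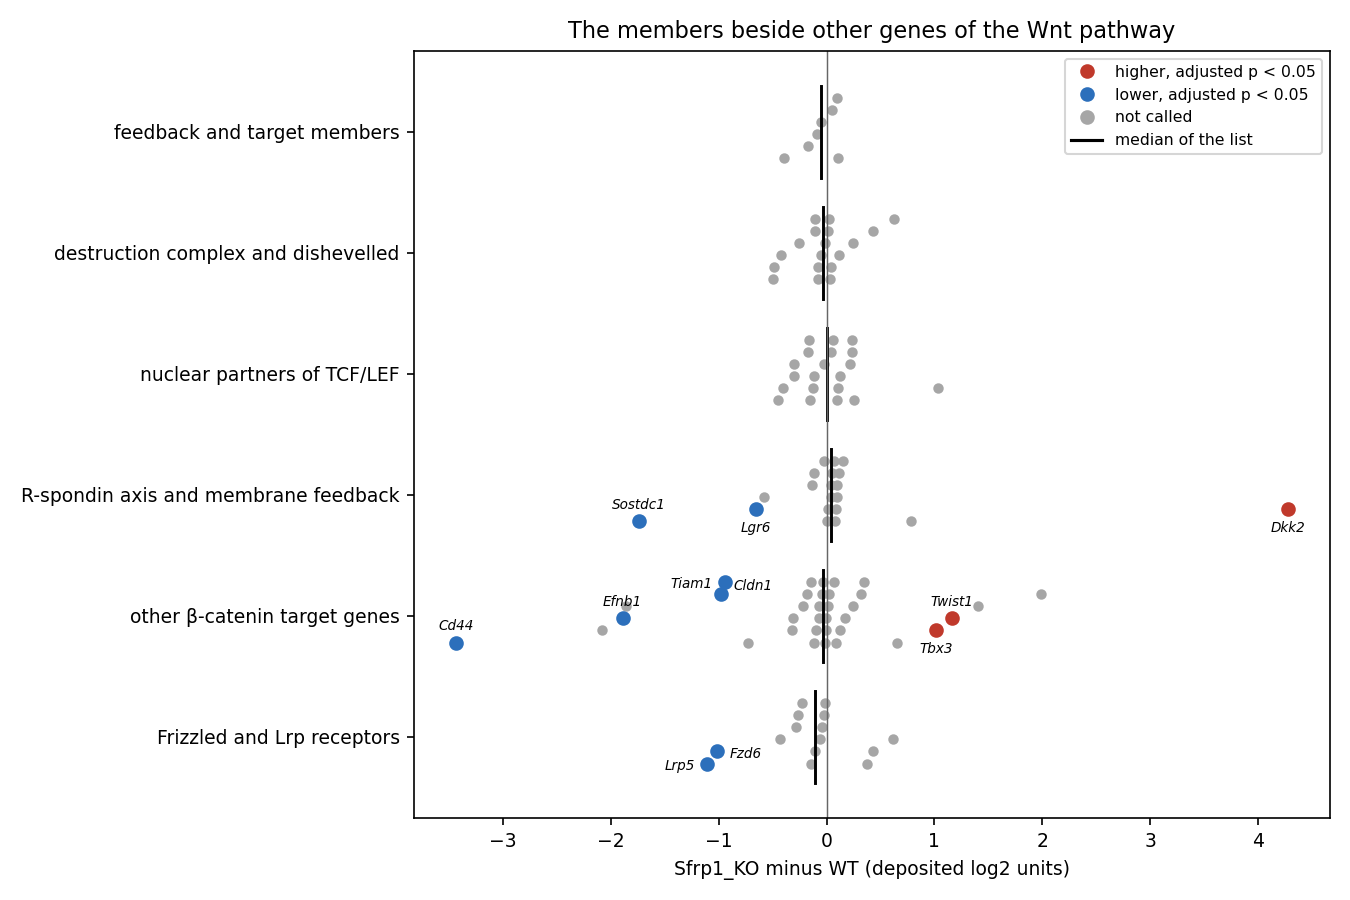
Difference between the genotypes (Sfrp1_KO minus WT, deposited log2 units) of the 7 measured members, in the top row, and of the genes of 5 other Wnt lists, each point a gene, coloured where limma's adjusted p is under 0.05, with the median of each list as a black bar. The members lie between -0.39 and 0.11, and the 11 coloured genes belong to the other lists.

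Markers of cell types and states differed between the same arrays. Their lists too were chosen with earlier results of these data known, so counts beside the share of all genes are no test. Of 8 markers of basal keratinocytes 5 were called lower in Sfrp1_KO and 0 higher, where 1.45% of all genes were lower. The mean level over the list was 6.04 to 6.20 on the Sfrp1_KO arrays, against 9.27 to 10.1 on the WT arrays. Krt5 had a mean of 6.64 in Sfrp1_KO and 17.39 in WT. Its difference of -10.74 was the lowest of all genes (limma adjusted p = 0.000127). Krt14 differed by -7.45 (adjusted p = 0.00190). Trp63 was at 4.91, 4.78 and 4.77 on the Sfrp1_KO arrays, all under background, against 7.29, 7.22 and 7.17 on the WT arrays (adjusted p = 0.000196). Of 10 markers of the dermal papilla, a site of Lef1 expression in the hair follicle, 5 were higher (mean 6.19 to 6.38 in Sfrp1_KO and 5.00 to 5.26 in WT), where 1.83% of all genes were. Crabp1, which binds retinoic acid, rose by 6.02 (limma adjusted p = 0.00348), the transcription factor gene Sox2 by 2.04 (0.0316) and the proteoglycan gene Vcan by 1.84 (0.00825). The other 5 were not called, and 4 of them (Corin, Alpl, Fgf10 and Lepr) were under background on all arrays. Sox2 was called without WT replicate 3 and not without any 1 of the other 5 arrays (adjusted p up to 0.129). Of 12 markers of hair follicle stem cells, which Lgr5 and Tcf7l1 mark as well, Lgr6 alone was called (mean 5.25 to 5.37 in Sfrp1_KO and 5.27 to 5.64 in WT). All 8 measured T cell markers, a lineage that uses Lef1, were under background on every array (mean 4.13 to 4.24 in Sfrp1_KO and 4.15 to 4.25 in WT). The smallest p-values were those of Cd8a (-0.17, limma adjusted p = 0.410) and Cd28 (0.12, adjusted p = 0.582). None of 12 leukocyte and macrophage markers was called (mean 4.90 to 5.55 in Sfrp1_KO and 4.59 to 4.71 in WT), though 11 of the 12 differences were positive. At an unadjusted p under 0.05, 8 were higher and none lower, and 8 were higher without overlap (14.4% and 19.9% of all genes in either direction). Lyz2, a macrophage lysozyme, was at 7.94, 6.84 and 5.96 on the Sfrp1_KO arrays, against 5.11, 4.69 and 5.02 on the WT arrays (limma adjusted p = 0.0941), and Laptm5, a lysosomal protein gene of leukocytes, was next. Without Sfrp1_KO replicate 3 both were called (0.0352 and 0.0257). Ptprc, which marks leukocytes, was under background on every array. Of 11 fibroblast markers 2 were higher and 1 lower (mean 6.22 to 6.81 in Sfrp1_KO and 5.70 to 7.01 in WT, the highest on WT replicate 3). Pdgfrb, a growth factor receptor, rose by 3.72 (limma adjusted p = 0.00696) and Thy1 by 0.89 (0.0237), and Fbln1, a matrix protein gene, fell by at least 0.78 (0.00394). Thy1 was called without Sfrp1_KO replicate 3 and not without any 1 of the other 5 arrays (lowest adjusted p 0.0662). None of 8 endothelial and none of 7 melanocyte markers was called (means 4.47 to 4.69 and 4.36 to 4.60 in Sfrp1_KO, 4.31 to 4.82 and 4.30 to 4.55 in WT). The endothelial genes nearest the threshold were Cdh5 (difference 1.66, limma adjusted p = 0.264, and 0.0337 without Sfrp1_KO replicate 3) and Pecam1 (-0.38, adjusted p = 0.385). Of the 8 endothelial differences 7 were negative, and Cdh5 was the 1 that was positive. The melanocyte genes nearest it were Mitf (0.50, limma adjusted p = 0.221) and Mlana (-0.20, adjusted p = 0.604), the latter under background on all arrays. The part of these cell types in the values of Znrf3 was not tested.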

How the data were processed

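The deposited values are log2 signals per probe set. The submitters' processing notes name RMA and Affymetrix Expression Console as the authors' tools, without versions. The table's annotation build was not given in the sources used here. Scanner files were not used. Of 72688 features, 6732 were controls, 30604 carried 1 platform symbol, 2146 several, and 33206 none that is listed. Symbols were updated through gene identifiers in a RefSeq table (GRCm38.p6), used otherwise for chromosomes; promoter windows came from RefSeq. The brightest feature stood for each of 30142 genes. Genotypes, taken from the sample titles, were compared in R 4.3.3 by the moderated test of limma 3.58.1, two-sided, with p-values adjusted over all genes by Benjamini-Hochberg and a threshold of 0.05, with differences as Sfrp1_KO minus WT. In simulated data with the spread of these arrays, the procedure called 1 of 50 genes changed by 0.4 log2 units. It called 37 of 50 changed by 1, 44 of 50 by 2 and 49 of 50 by 3, with 5 false calls. A missing call at a difference near 0.4 therefore does not show that a gene is unchanged. The simulation gave 136 calls in all, where the arrays gave 989, so a call there needed a smaller unadjusted p. Its counts of genes found may therefore be lower than on these arrays. Where all arrays of a genotype lay under background, "at least" marks a difference to the mean background level of those arrays. All members, Sfrp1, the sort markers, Ptprc and Pecam1 were to be named. So were up to 4 called genes per direction per Wnt list and up to 3 called per marker list. Where a list had no call, the 2 genes with the smallest p were to be named. Lgr4, Lrp6, Ryk, Ror2, Corin, Alpl, Fgf10 and Lepr were named after their values were seen. The split of genes by mean level against background was chosen then too. Members and lists were chosen with earlier results of these data known. Alternatives were the replicate number as a block, a filter on dim genes, features averaged per gene, quantile normalization once more, array weights, trend and robust options, no moderation, a minimum difference of 1, all annotated features, each array left out, and another background level.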

Additional observations from a re-analysis of the deposited data

How the results depend on the processing

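No difference of the 7 measured genes or of Sfrp1 changed sign under any alternative run, and no member was called higher in any. A single member, Znrf3, was called lower with array weights (1 member, limma adjusted p = 0.0475). Array weights called 754 of all genes higher and 576 lower, against 552 and 437 without them. With dim genes left out, Znrf3 and Nkd1 were the members tested, and 2 members were above background by either definition of it. The labels link arrays of the genotypes by nothing but the replicate number. Between arrays with the same number, deviations from the genotype means correlated across genes at 0.18, -0.12 and 0.17. Between arrays with different numbers the correlations ran from -0.33 to 0.25. With the replicate number as a block 297 genes were higher and 238 lower, against 552 and 437 without it, the members had no call, the adjusted p of Znrf3 was 0.181, and Lgr6, Sostdc1, Twist1, Epcam, Itga6, Sox2 and Thy1 were not called. Leaving out each array in turn gave 191 to 487 genes higher and 100 to 407 lower, no member in either direction, and 2 to 4 higher and 3 to 11 lower among the other Wnt genes (3 lower without Sfrp1_KO replicate 1 or 2, 5 without replicate 3); fewer samples were tested in these. Quantile normalization once more called 892 genes higher, 6 of them other Wnt genes. Without moderation 14 genes were higher and 21 lower, and 0 other Wnt genes in either direction. A minimum difference of 1 left 47 higher and 37 lower, 1 and 0 among the other Wnt genes. Cd34 was called with dim genes left out, array weights or quantile normalization once more; after the last Epcam was not called. Laptm5 was called with array weights. Ptprc, under background, ran from -0.022 to 0.108 with each array left out and was below 0 without Sfrp1_KO replicate 1 (-0.0029) or WT replicate 1. Where the construction of a setting does not show why a count moved, the cause was not tested. Signals under background limit what the arrays can show for 5 of the 7 members.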
